A study of Mus musculus with 4 samples.

Results

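Border-associated macrophages (BAMs) of the lesion were nuclei taken from photothrombotic (PT) lesions of mouse cortex chosen by summed counts of unique molecular identifiers (UMIs, each a single transcript) of marker genes. Barcodes under a minimum depth, the lowest 2.49% of all barcodes by UMIs, were left out first. A nucleus needed 4 or more UMIs over Cd163, Cbr2, F13a1, Mrc1 and Clec10a with at least 2 of these genes seen, and 1 or more over Cd163 and F13a1. It also needed 1 or more UMI over the myeloid genes Csf1r, Inpp5d and Apbb1ip, and at most 1 over Bnc2, Slc17a7, Gad2 and Aqp4, which mark fibroblasts, neurons and astrocytes. The rule found 187 of 16490 lesional nuclei, of 22905 nuclei with the minimum depth in all.

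PT injury, a focal lesion made by light activation of a dye in cortical vessels, was studied at 21 days post-injury (dpi) in animals of genotype WT (control) and in animals of genotype Col1a2(creER); Cxcl12(flox), called Cxcl12-cKO. In the latter an inducible Cre of collagen-producing fibroblasts was to delete the chemokine gene Cxcl12, so macrophages were not themselves the target. Each genotype was 1 library that pooled 1 male and 1 female mouse and mixed lesional with parenchymal nuclei at 75% and 25%. The question for these macrophages was whether their number or state differed when fibroblasts carried the deletion allele.

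BAMs live in the meninges, along vessels and in the choroid plexus, outside the neural tissue that microglia occupy. They are known for scavenger and lectin receptors that take up material from fluid and blood, and subsets of them display antigen on major histocompatibility complex (MHC) class II molecules. After injury monocytes can enter the same niches, and their progeny can share these genes.

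The lesional matrices held 8321 nuclei with the minimum depth under the control label and 8169 under the Cxcl12-cKO label, with 34589781 and 31836860 UMIs. The labels were checked on Cxcl12 in fibroblast-gated nuclei, which had 5 or more collagen and Bnc2 UMIs and no myeloid UMI, a gate chosen after the data had been seen. Cxcl12 stood at 87.8 UMIs per 1000000 UMIs of the class (CPM) in the control-labelled library and at 187 CPM in the cKO-labelled one, the log2 ratio being 1.09 (95% counting interval 0.99 to 1.19). That direction went against the Cxcl12-cKO label, although 3′ counts need not cover the deleted part of the gene. Each library is therefore named by its label only, as control-labelled or cKO-labelled. UMIs of both sexes occurred in 9.66% and 11.2% of lesional nuclei of the control-labelled and cKO-labelled libraries. The matrices shared 22 barcodes, none of them a BAM nucleus. Among BAM nuclei, UMIs of both sexes occurred in 10 of 112 and 5 of 75, and 3 or more UMIs of Col1a1, Col1a2 and Col3a1 in 5 and 5. Each genotype had no replicate library, its 2 mice being of different sex within 1 library, and no test between genotypes was made. The intervals given here cover counting error only, and differences are between these libraries.

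BAM nuclei numbered 112 in the control-labelled library and 75 in the cKO-labelled library. They made up 1.35% of lesional nuclei in the first (exact binomial interval 1.11% to 1.62%) and 0.918% in the second (0.723% to 1.15%), a log2 ratio of −0.55 (−0.99 to −0.12). Among myeloid-gated nuclei, which had 2 or more UMIs of Csf1r, Inpp5d and Apbb1ip, the share was 7.08% and 4.07%, a log2 ratio of −0.80 (−1.24 to −0.36). Nuclei could be assigned to a mouse by UMIs of Xist or of Y-linked genes. The female mice gave 44 and 31 BAM nuclei, or 1.27% and 0.908% of their lesional nuclei, and the log2 ratio was −0.49 (−1.20 to 0.21). The male mice gave 29 and 21, or 1.04% and 0.822%, with a log2 ratio of −0.34 (−1.22 to 0.52). Both mice pointed the same way, and within a mouse these intervals included 0. Of myeloid-gated nuclei, BAM nuclei were 7.05% and 3.21% in the female mice, a log2 ratio of −1.14 (−1.85 to −0.44), which excluded 0. In the male mice they were 6.05% and 4.93%, a log2 ratio of −0.30 (−1.18 to 0.56). When every nucleus was thinned to the minimum depth before the rule was applied, 52 and 38 nuclei met it, and the log2 ratio of the shares was −0.43 (−1.07 to 0.21). In the parenchyma the rule found 2 and 4 nuclei, or 0.0620% and 0.126% of all nuclei there. Among the 31 and 50 myeloid-gated nuclei of the parenchyma these were 6.45% (0.791% to 21.4%) and 8% (2.22% to 19.2%), intervals that included the lesional shares of that gate.

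**Figure D1:**
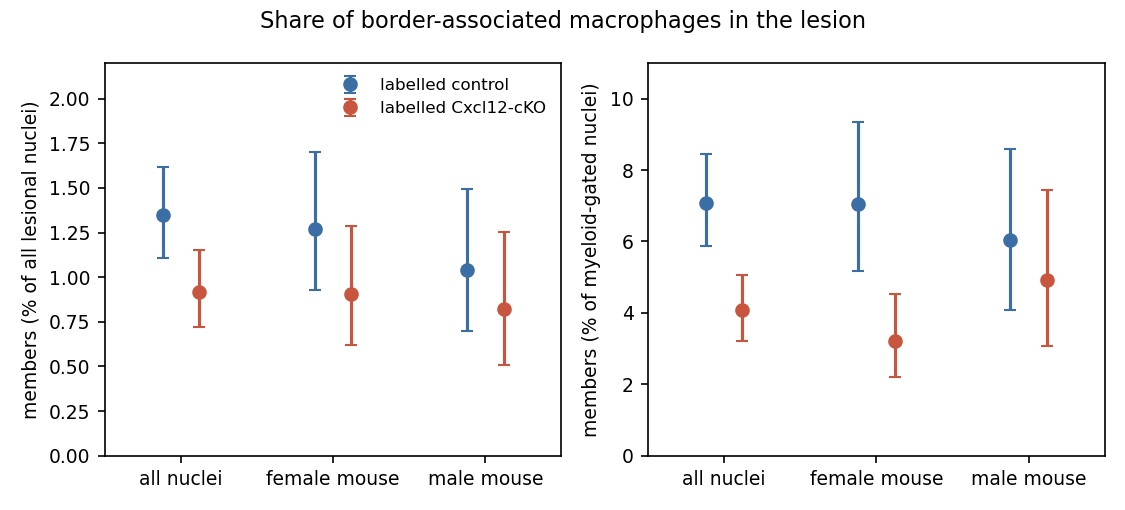
Share of BAM nuclei among all lesional nuclei (left) and among myeloid-gated lesional nuclei (right), in percent, for all nuclei and for those assigned to the female or the male mouse. Points are the libraries labelled control (blue) and Cxcl12-cKO (red), and bars are exact 95% binomial intervals. Among all lesional nuclei the shares were 1.35% and 0.918%, and within each mouse the intervals of the libraries overlapped. Among myeloid-gated nuclei they overlapped in the male mice but not in the female mice.

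The genes of the rule describe how the nuclei were chosen and are no result. A BAM nucleus carried a median of 11 UMIs of them in the control-labelled library and 12 in the cKO-labelled library, and at most 52 and 59. F13a1, which encodes a subunit of coagulation factor XIII, had a UMI in 96.4% and 97.3% of BAM nuclei. Mrc1, the mannose receptor CD206, had one in 98.2% and 98.7%. Cd163, the receptor for haemoglobin bound to haptoglobin, was seen in 22.3% and 17.3%, the lectin gene Clec10a in 37.5% and 25.3%, and the carbonyl reductase gene Cbr2 in 17.9% and 21.3%. The nuclei were thus found mostly by F13a1 and Mrc1. In fibroblast-gated nuclei, at median depths of 3102 and 3166 UMIs against 2015 and 2131 in BAM nuclei, F13a1 had a UMI in 0.396% and 0.923% and Mrc1 in 1.19% and 1.25%. At the threshold, 12 nuclei with a sum of 4 held Stab1 at 1691 CPM and the lysosomal glycoprotein gene Gpnmb at 315 CPM, whereas 16 nuclei with a sum of 3, left out, held 498 and 2092 CPM. The 10 nuclei with a sum of 5, members too, held Stab1 at 1302 CPM, Gpnmb at 1709 CPM and the MHC class II chaperone gene Cd74 at 2523 CPM, against 275 CPM of Cd74 at a sum of 4. The Gpnmb UMIs of these 10 nuclei all lay in 1 of them, which held 42. Another held 88 UMIs over Cd74 and the MHC class II chain genes H2-Aa, H2-Ab1 and H2-Eb1.

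The name was checked on 18 other genes known from BAMs. A BAM nucleus had UMIs of a median of 6 of these 18 in each library, and 93.8% and 96.0% of nuclei had 3 or more. Stab1, a scavenger receptor of stabilin type, stood at 1392 and 1509 CPM in BAM nuclei of the control-labelled and cKO-labelled libraries. Dab2, an endocytic adaptor, stood at 1557 and 1605 CPM, and Maf, a macrophage transcription factor, at 1035 and 965 CPM. Siglec1, the sialic acid receptor CD169, stood at 188 and 196 CPM and the folate receptor gene Folr2 at 54.9 and 61.7 CPM. Other classical genes were nearly unseen. Lyve1, the hyaluronan receptor of a perivascular subset, had 1 and 3 UMIs in all. The platelet factor gene Pf4 had 6 and 6, the lectin genes Cd209f and Cd209g had 1 and 3 and then 6 and 10, and Ccl24 had 0. The profile thus held part of the known BAM genes, with few transcripts of Lyve1, Pf4, Cd209f and Cd209g and none of Ccl24. The sum of the 18 genes was 6806 CPM in the control-labelled library and 6801 CPM in the cKO-labelled library, a log2 ratio of 0.00 (−0.11 to 0.11).

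BAM nuclei were set beside 2 other myeloid classes gated in the same matrices. Homeostatic-gene microglia (258 and 210 nuclei) had 3 or more UMIs over P2ry12, Tmem119, Sall1, Siglech, Gpr34 and Cx3cr1, with few Gpnmb and rule-gene UMIs. Gpnmb-high macrophages (238 and 428 nuclei) had 5 or more Gpnmb UMIs and at most 1 UMI of those microglial genes. As a share of myeloid-gated nuclei, the log2 ratio was −0.52 (−0.79 to −0.25) for microglia and 0.63 (0.39 to 0.86) for Gpnmb-high macrophages. A lower share of that gate under the Cxcl12-cKO label was thus not particular to BAM nuclei. The gates separate the classes by construction, so the comparisons describe the classes and none is a test. A gene with 30 or more UMIs was counted as different where its log2 ratio of CPM reached 1 in either direction in both libraries. Of 7343 genes, 9.12% differed between BAM nuclei and microglia, with 3.88% higher and 5.24% lower in BAM nuclei. Of 8976 genes, 10.8% differed from Gpnmb-high macrophages, with 5.11% higher and 5.69% lower. Of the 12 other BAM genes that could be compared, 10 were higher and 0 lower than in microglia, and 7 were higher and 0 lower than in Gpnmb-high macrophages. The 18 genes were not absent from those classes. They summed to 2038 and 2248 CPM in microglia and 2677 and 2619 CPM in Gpnmb-high macrophages, against 6806 and 6801 CPM in BAM nuclei. How many of the 18 each nucleus of those classes showed is not given, so the shares with 3 or more have no such background.

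Microglial identity genes were lower in BAM nuclei than in microglia. P2ry12, the ADP receptor of resting microglia, stood at 251 and 241 CPM against 705 and 714 CPM in microglia. The gate of the microglia used it, and also used Cx3cr1, Sall1 and Tmem119. Cx3cr1, the fractalkine receptor, stood at 173 and 135 CPM against 950 and 769 CPM. Sall1, a transcription factor of microglial identity, had 19.6 and 5.61 CPM against 207 and 205 CPM, and Tmem119 had no UMI in any BAM nucleus. Of 4 listed microglial genes outside the gate that could be compared, 2 were lower and 0 higher in BAM nuclei than in microglia. Against Gpnmb-high macrophages, of 4 such genes 2 were higher and 0 lower in BAM nuclei. P2ry12 had a UMI in 36.6% and 33.3% of BAM nuclei, and 20 and 11 nuclei held 2 or more of the 6 microglial genes. T cell genes were nearly absent, with 4 and 1 UMIs over 8 genes. Ighm, the heavy chain of IgM in B cells, had 18 and 17 UMIs in BAM nuclei, or 70.6 and 95.4 CPM, against 37.7 and 29.0 CPM in microglia and 1.26 and 1.36 CPM in Gpnmb-high macrophages.

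**Figure D2:**
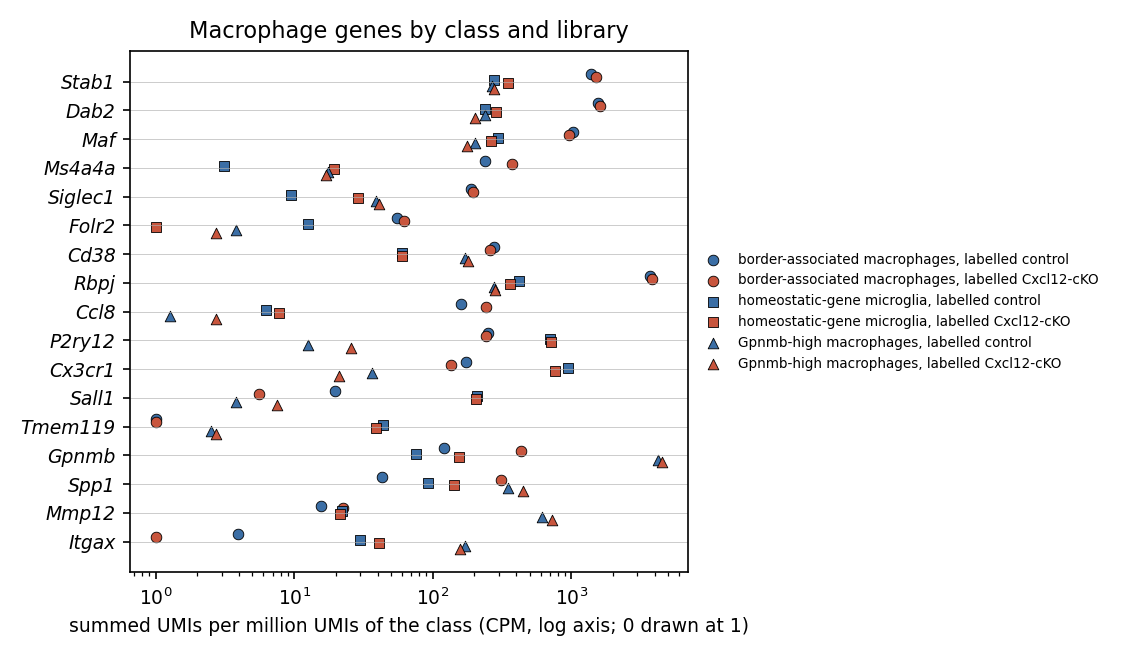
Level of 17 macrophage genes, as summed UMIs per 1000000 UMIs of the class on a log axis, in BAM nuclei (circles), homeostatic-gene microglia (squares) and Gpnmb-high macrophages (triangles) of the libraries labelled control (blue) and Cxcl12-cKO (red), with 0 drawn at 1. Stab1, Dab2, Maf, Rbpj and Ccl8 were highest in BAM nuclei of both libraries, and Gpnmb and Mmp12 in Gpnmb-high macrophages.

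Rbpj, the transcription factor through which Notch receptors act, had the most UMIs in BAM nuclei of the genes that ranked highest against both classes. It stood at 3685 and 3832 CPM in BAM nuclei, against 416 and 364 CPM in microglia and 276 and 279 CPM in Gpnmb-high macrophages. The log2 ratios over microglia were 3.15 (2.95 to 3.35) and 3.39 (3.16 to 3.64). Those over Gpnmb-high macrophages were 3.74 (3.53 to 3.96) and 3.78 (3.60 to 3.96). Rbpj UMIs were spread over 84.8% and 80.0% of BAM nuclei, against 26.3% and 29.3% of fibroblast-gated nuclei. Between the libraries Rbpj differed little, with a log2 ratio of 0.06 (−0.09 to 0.20). Of 23 listed transcription factors compared with microglia, 3 were higher in BAM nuclei (Rbpj and Maf among them) and 4 lower. Irf8, a factor of the microglial and monocytic lineages, was among the low ones at 176 and 152 CPM against 383 and 416 CPM. Zeb2 was abundant in all classes, at 5458 and 5695 CPM in BAM nuclei and 3445 and 3465 CPM in microglia.

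Single genes of secreted factors differed between the classes, in both directions. Of 10 chemokine and cytokine genes 2 were higher and 1 lower than in microglia, and of 16 growth and matrix genes 2 were higher and 4 lower. Ccl8, a chemokine that binds CCR2 and other receptors, stood at 161 and 241 CPM in BAM nuclei, against 6.28 and 7.74 CPM in microglia and 1.26 and 2.73 CPM in Gpnmb-high macrophages. It had a UMI in 19.6% and 25.3% of BAM nuclei and in 0.669% and 0.655% of fibroblast-gated nuclei. Within the control-labelled library its UMIs lay mostly in the female mouse, with 30 UMIs in 14 nuclei against 1 UMI in 1 nucleus of the male mouse. The cKO-labelled library held 23 Ccl8 UMIs in 9 female and 12 in 5 male nuclei. Pdgfc, a platelet-derived growth factor that acts on fibroblasts, stood at 565 and 701 CPM against 54.9 and 38.7 CPM in microglia. Against Gpnmb-high macrophages, at 272 and 302 CPM, its excess was smaller. Igf1, insulin-like growth factor 1, stood at 745 and 589 CPM, below the 1194 and 1093 CPM of Gpnmb-high macrophages.

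Genes of adhesion, uptake and complement went both ways. Vcam1, an adhesion molecule for leukocytes, stood at 129 and 118 CPM against 7.85 and 3.87 CPM in microglia. Nlrc4, an inflammasome sensor, stood at 125 and 123 CPM against 7.85 and 0 CPM. Ms4a4a, a membrane protein of macrophages, stood at 239 and 370 CPM against 3.14 and 19.4 CPM. Of 15 scavenger and lectin genes, 7 were higher and 1 lower than in microglia, and of 15 compared with Gpnmb-high macrophages, 6 were higher and 3 lower. Of 15 genes of the uptake of dying cells, 4 were higher and 3 lower than in microglia, and 1 was higher and 4 lower than in Gpnmb-high macrophages. Of 14 iron and haem genes, 4 were higher and 0 lower than in microglia, among them ceruloplasmin (Cp, 294 and 269 CPM against 69.1 and 44.5 CPM), and of 15 compared with Gpnmb-high macrophages, 3 were higher and 1 lower. Of 11 complement genes, 3 were higher and 1 lower than in microglia. Of 12 complement genes, 6 were higher and 1 lower than in Gpnmb-high macrophages. C4b, an early component of the cascade, stood at 192 and 180 CPM in BAM nuclei against 16.4 and 8.86 CPM.

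Further genes ranked highest against one of the classes. Against microglia these included Arhgef3, a guanine nucleotide exchange factor, at 576 and 685 CPM against 40.8 and 36.8 CPM. Psd3, an ARF6 exchange factor, stood at 1113 and 1375 CPM against 110 and 112 CPM, and Eps8, an actin regulator, at 404 and 342 CPM against 36.1 and 34.8 CPM. All 3 act on the cytoskeleton or on membrane traffic. Against Gpnmb-high macrophages, Cmah, which modifies sialic acid, stood at 199.96 and 236 CPM against 1.26 and 1.36 CPM. The leukaemia inhibitory factor receptor gene Lifr stood at 353 and 247 CPM against 13.9 and 13.6 CPM. Ccr2 stood at 227 and 129 CPM against 5.04 and 1.36 CPM, but a UMI of it was seen in 12 of 112 and 4 of 75 BAM nuclei only, so most BAM nuclei showed none. The fibroblast-gated nuclei showed a Ccr2 UMI in 0.421% and 0.238%. Bank1, an adaptor best known from B cells, stood at 294 and 387 CPM against 20.2 and 17.7 CPM. Alox5, which makes leukotrienes, stood at 122 and 67.3 CPM against 5.04 and 2.04 CPM.

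BAM nuclei lacked much of the lipid and matrix programme of Gpnmb-high macrophages. Of 21 lysosome and lipid genes, 10 were lower and 1 higher, and of 22 growth and matrix genes, 7 were lower and 1 higher. Mmp12, macrophage elastase, stood at 15.7 and 22.4 CPM against 619 and 724 CPM, and the galectin gene Lgals3 at 141 and 219 CPM against 1197 and 1158 CPM. The integrin gene Itgax (CD11c), used as a dendritic and injury-state marker, had 1 UMI in BAM nuclei of the control-labelled library and 0 in the cKO-labelled library, against 171 and 157 CPM in Gpnmb-high macrophages. Stra6l had no UMI in BAM nuclei. At a floor of 3 UMIs over the class it was at least 10.9-fold lower than in Gpnmb-high macrophages in the control-labelled library and at least 7.41-fold lower in the cKO-labelled library. Against microglia, Tgfbr1, a receptor for the cytokine TGFβ, was lower at 361 and 354 CPM against 1481 and 1460 CPM, and Nav3 at 157 and 78.6 CPM against 2292 and 2375 CPM. The checkpoint receptor gene Lag3 had no UMI in BAM nuclei and was at least 5.21-fold lower than in microglia under the control label and at least 4.03-fold lower under the Cxcl12-cKO label. Serpine2, a protease inhibitor, had 3 and 0 UMIs in BAM nuclei against 126 and 112 in microglia.

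Of the gene lists compared between the libraries, antigen presentation by MHC class II had the lowest median ratio. H2-Aa, H2-Ab1 and H2-Eb1 encode the chains of the molecules, Cd74 the invariant chain that guides them, and Ciita the coactivator that switches the genes on. The coactivator acts through a conserved set of boxes just upstream of the start, of which the Y box is searched here as the letters CTGATTGG (CCAATCAG on the other strand). Of the 4 genes looked for, H2-Aa, H2-Eb1, H2-Ab1 and Ciita, 2 had an entry in the RefSeq promoter table of build GRCm38.p6, another build than the GRCm39 of the counts. Their 250 bases before the start are shown because these genes were lower together, with the Y box in capitals, at chr17:34287824-34288073 on the minus strand for H2-Aa and chr17:34305617-34305866 on the plus strand for H2-Eb1.
H2-Aa: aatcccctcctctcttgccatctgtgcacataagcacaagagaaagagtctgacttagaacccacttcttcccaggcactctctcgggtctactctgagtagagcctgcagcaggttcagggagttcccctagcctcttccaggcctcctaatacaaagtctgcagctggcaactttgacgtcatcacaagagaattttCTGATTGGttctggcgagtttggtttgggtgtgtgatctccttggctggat
H2-Eb1: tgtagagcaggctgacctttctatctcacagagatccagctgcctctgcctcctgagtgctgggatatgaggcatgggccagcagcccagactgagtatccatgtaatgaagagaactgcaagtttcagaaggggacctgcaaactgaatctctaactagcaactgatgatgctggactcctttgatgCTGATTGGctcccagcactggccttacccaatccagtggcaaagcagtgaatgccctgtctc
The box began 51 bases before the start of H2-Aa and 62 bases before that of H2-Eb1, and these letters occurred on either strand in 3.83% of the 32851 promoters of the table. A match describes the sequence and is no evidence of binding.

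Between the libraries, a gene was counted as different where its log2 ratio of CPM, labelled Cxcl12-cKO over labelled control, reached 1 in either direction. Of 3181 genes with 30 or more UMIs in BAM nuclei, 4.06% differed, with 1.85% higher and 2.2% lower under the Cxcl12-cKO label, and 3.36% differed with the same sign in both mice. The median over all these genes was −0.01. Of the 6 MHC class II genes that could be compared, 5 were lower and 0 higher, with a median of −1.59. Cd74 had 319 UMIs (1251 CPM) in the control-labelled library and 84 UMIs (471 CPM) in the cKO-labelled library, a log2 ratio of −1.40 (−1.77 to −1.06). H2-Eb1 had 78 and 7 UMIs, a log2 ratio of −2.87 (−4.32 to −1.85). H2-Aa had 90 and 22 (−1.49, −2.26 to −0.83) and H2-Ab1 89 and 19 (−1.68, −2.51 to −0.98). Ciita had 39 and 8 (−1.70, −3.08 to −0.65). The protease gene Ctss, which trims the invariant chain, had 188 and 82 (−0.67, −1.07 to −0.30). The summed list stood at 3242 and 1291 CPM in BAM nuclei, a log2 ratio of −1.33 (−1.55 to −1.12). It was −0.20 (−0.35 to −0.06) in microglia and 0.18 (0.05 to 0.32) in Gpnmb-high macrophages. Single nuclei weighed on these sums in the cKO-labelled library. Over H2-Aa, H2-Ab1, H2-Eb1 and Cd74, 1 nucleus held 130 of 164 UMIs in microglia and 1 held 62 of 141 in Gpnmb-high macrophages. The difference between these classes was not tested.

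A few nuclei held most of these UMIs. Over H2-Aa, H2-Ab1, H2-Eb1 and Cd74, BAM nuclei held 576 UMIs in the control-labelled library and 132 in the cKO-labelled library. The tenth of nuclei with most of them held 83.5% and 90.2%. Single nuclei held 296 and 106 UMIs in the female mouse labelled control, and 1 nucleus with no sex-linked UMI held 88 in the cKO-labelled library. These 3 nuclei also held 11, 15 and 9 UMIs of Ccr2, the receptor of recruited monocytes, and the one with 106 had UMIs of 2 of the 18 other BAM genes and none of Stab1, Dab2 or Maf. Its expression went against the name of the class. Another 2 members of the control-labelled library, with 4 and 13 MHC class II UMIs and 3 Ccr2 UMIs each, showed none of the 18 genes, and 1 with 9 MHC class II and 4 Ccr2 UMIs showed 1 of them. Without the 3 nuclei the summed list was 1397 and 723 CPM, a log2 ratio of −0.95 (−1.26 to −0.65). The summed list of 8 monocyte genes, which holds Ccr2, stood at 392 and 185 CPM in BAM nuclei of the control-labelled and cKO-labelled libraries (−1.07, −1.70 to −0.50). Without the 3 nuclei it stood at 237 and 138 CPM (−0.76, −1.53 to −0.07). Between the female mice its log2 ratio was −0.88 (−1.78 to −0.10) with them and 1.87 (0.55 to 3.57) without, so the direction there rested on these nuclei. A list of 8 dendritic cell genes had 17 and 4 UMIs, with Xcr1, Cd209a, Ccr7 and Itgae at 0 and Flt3 at 3 and 0. The part of such cells in the MHC class II values was tested only by leaving nuclei out. Without the Ccr2-bearing nuclei (12 and 4) the median of the MHC class II list was −1.32. It was −0.69 without the nuclei with 3 or more collagen UMIs and −3.38 where the rule sum had to reach 6.

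The difference was also seen as a share of nuclei. One or more of the 4 transcripts was found in 44 of 112 BAM nuclei of the control-labelled library, or 39.3% (30.2% to 48.96%), and in 15 of 75 of the cKO-labelled library, or 20% (11.6% to 30.8%). Thinned to the minimum depth, the shares were 27.7% and 10.7%, against 8.91% and 4.76% in microglia, 5.04% and 2.10% in Gpnmb-high macrophages and 2.72% and 1.16% in fibroblast-gated nuclei. Every class thus had the lower share under the Cxcl12-cKO label, so that direction was not particular to BAM nuclei. In fibroblast-gated nuclei, which should lack these transcripts, the unthinned shares were 9.21% and 5.96%. With 3 or more UMIs there were 28 and 8 BAM nuclei, or 25.0% and 10.7%, against 0.693% and 0.238% of fibroblast-gated nuclei.

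These transcripts were most frequent in the female mouse labelled control. There 24 of 44 nuclei, or 54.5% (38.8% to 69.6%), held a UMI of the 4 genes, against 13.8% (3.89% to 31.7%) of the 29 nuclei of the male mouse labelled control. In the cKO-labelled library the shares were 19.4% (7.45% to 37.5%) for the female mouse and 14.3% (3.05% to 36.3%) for the male mouse. The interval of the female mouse labelled control lay above those of the other 3 mice, which overlapped. The log2 ratio of the summed list was −2.95 (−3.36 to −2.58) between the female mice, −1.19 (−1.65 to −0.77) without the MHC-rich nuclei, and −0.11 (−0.74 to 0.50) between the male mice. In microglia it was −1.38 (−1.61 to −1.16) between the female mice and 1.34 (1.02 to 1.67) between the male ones. In the male mouse labelled Cxcl12-cKO, 130 of the 138 UMIs of the 4 genes in microglia lay in 1 nucleus. With 1 mouse of each sex per genotype, genotype, sex and individual mouse cannot be told apart.

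**Figure D3:**
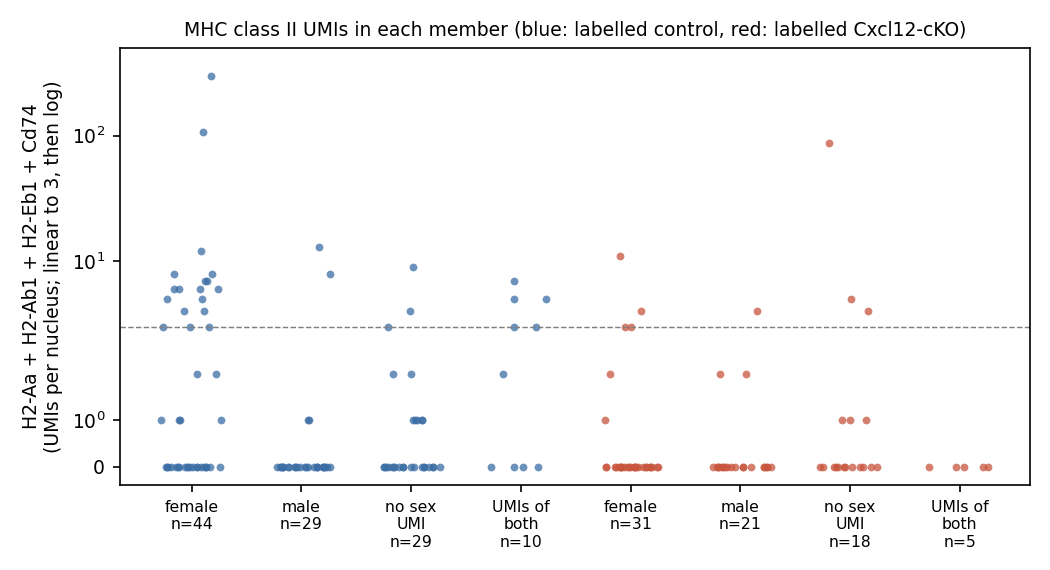
UMIs of H2-Aa, H2-Ab1, H2-Eb1 and Cd74 in each BAM nucleus (vertical axis, linear to 3 and logarithmic above), by mouse of origin as called from Xist and Y-linked UMIs. Each point is a nucleus of the control-labelled (blue) or cKO-labelled (red) library, and the dashed line marks 3 UMIs. Nuclei of the female mouse labelled control reached the line in 18 of 44 cases, against 2 of 29, 4 of 31 and 1 of 21 in the male control, female cKO and male cKO mice.

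BAM nuclei with MHC class II transcripts differed from those without in other genes as well. Leaving out the 3 MHC-rich nuclei, 33 nuclei with 3 to 49 UMIs of the 4 genes were set against 128 with none, at median depths of 2163 and 2056 UMIs, with 23 nuclei between. The cut was not sharp, since 8 nuclei held 2 UMIs and 8 held 3. These sets were cut from the data, and 26 of the 33 came from the control-labelled library, so the ratios are a description. Ccr2 had 33 UMIs in 7 of the 33 nuclei against 5 UMIs in 3 of the 128, a log2 ratio of 4.44 (3.19 to 6.27). Of 15 genes of the IFNγ (interferon-γ) response that could be compared, 5 had a log2 ratio of 1 or more and 0 one of −1 or less, all 15 lay above 0, and the median was 0.85. That list shares Ciita and several MHC class I genes with the antigen presentation lists. Only listed genes were compared between these nuclei, so the counts have no share over all genes beside them. Of all 133 listed genes compared, these 15 among them, 8 had a log2 ratio of 1 or more and 9 one of −1 or less. Irf1, an interferon-induced transcription factor, stood at 222 against 31.3 CPM, a log2 ratio of 2.79 (1.60 to 4.17). The interferon-induced GTPase gene Iigp1 stood at 284 against 41.7 CPM (2.74, 1.70 to 3.91).

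Of the 18 other BAM genes, 10 could be compared between these 33 and 128 nuclei. Of them 2 were lower and 0 higher, 9 lay below 0, and the median was −0.63. The 33 included the members above with 4, 13 and 9 MHC class II UMIs, which showed 0 or 1 of the 18 genes. Of 19 lysosome and lipid genes 4 were lower and 0 higher, with a median of −0.44. Scavenger, lectin and iron genes went both ways in the same nuclei. Of 10 scavenger and lectin genes 2 were higher and 2 lower, with a median of −0.16, and of 10 iron and haem genes 0 were higher and 1 lower, with a median of −0.08. The higher ones were the lectin genes Clec4a3 with a log2 ratio of 1.99 (0.94 to 3.07) and Clec4a1 with 1.45 (0.40 to 2.44). Slc40a1, the iron exporter ferroportin, had a log2 ratio of −2.45 (−5.84 to −0.82) and the lipid scavenger receptor gene Cd36 one of −2.08 (−5.48 to −0.43). Stab1 stood at 988 against 1673 CPM, a log2 ratio of −0.75 (−1.12 to −0.42), and Dab2 at 1161 against 1707 CPM (−0.55, −0.89 to −0.24). Cd38, an enzyme that consumes NAD, had a log2 ratio of −1.23 (−2.33 to −0.38). Rbpj was alike in both sets at 3521 and 3575 CPM, a log2 ratio of −0.02 (−0.22 to 0.17). Of the 133 listed genes that could be compared, the genes of these lists included, 8 were higher and 9 lower beside a median of 0.00. Within the control-labelled library alone, Irf1 had a log2 ratio of 3.07 (1.69 to 4.95), Slc40a1 one of −3.20 (−9.11 to −1.19) and Stab1 one of −0.77 (−1.21 to −0.36). The directions of these 3 genes were thus the same within 1 library. Of its nuclei assigned to a mouse, 16 female and 2 male ones held 3 to 49 UMIs, and 20 female and 25 male ones held 0. The comparison within this library therefore did not hold the mouse constant.

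**Figure D4:**
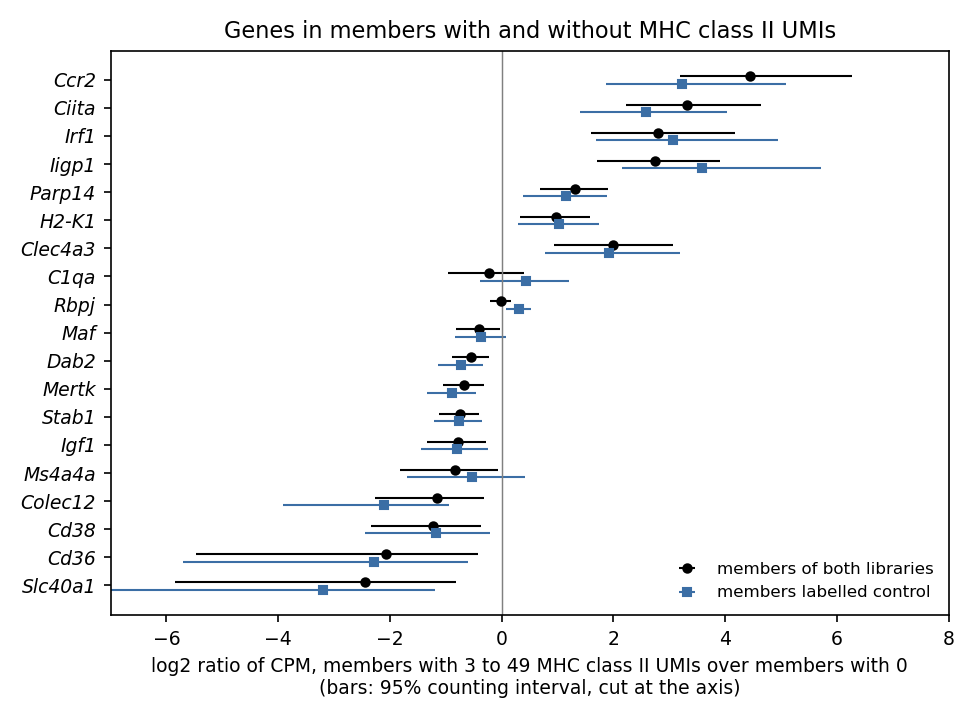
Log2 ratio of CPM of 19 genes between BAM nuclei with 3 to 49 MHC class II UMIs and BAM nuclei with 0, for members of both libraries (black circles) and of the control-labelled library alone (blue squares), with 95% counting intervals cut at the axis. Ccr2, Ciita, Irf1 and Iigp1 lay above 0, Stab1, Cd36 and Slc40a1 below it, and Rbpj near it in the pooled nuclei.

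Genes of the IFNγ response and of MHC class I leaned the same way between the libraries, by less. Of 18 IFNγ response genes, 3 were lower and 0 higher, 13 had a log2 ratio below 0, and the median was −0.31. Those past the fold were Ciita, Irf1 (25 and 7 UMIs, −1.25, −2.77 to −0.07) and Iigp1 (30 and 10 UMIs, −1.02, −2.27 to 0.00). The list summed to 4038 and 3103 CPM, a log2 ratio of −0.38 (−0.53 to −0.23), and to −0.34 (−0.50 to −0.18) without the MHC-rich nuclei. It was −0.49 (−0.58 to −0.39) in microglia and −0.22 (−0.31 to −0.14) in Gpnmb-high macrophages, so the lower sum was not particular to BAM nuclei. Between the female mice the sum had a log2 ratio of −0.58 (−0.79 to −0.37), and between the male mice 0.11 (−0.22 to 0.44). Of 5 MHC class I genes, none reached the fold, and all 5 had a ratio below 0 with a median of −0.59. H2-K1, a heavy chain, had 100 and 40 UMIs (−0.79, −1.37 to −0.26). Rnf213, an interferon-induced ubiquitin ligase, went the other way with 72 and 74 UMIs (0.56, 0.07 to 1.05).

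Complement receptors and some uptake genes were lower in the cKO-labelled library. C5ar1, the receptor for the complement fragment C5a, had 29 UMIs in 21 nuclei of the control-labelled library and 5 UMIs in 4 nuclei of the cKO-labelled library, a log2 ratio of −1.91 (−3.75 to −0.63). C3ar1, the receptor for C3a, had 33 and 11 UMIs (−1.03, −2.20 to −0.05). These were the 2 of 8 complement genes past the fold, with a list median of −0.32. The summed complement list had a log2 ratio of −0.95 (−1.24 to −0.68) between the female mice and 0.34 (−0.01 to 0.70) between the male mice. Of 12 scavenger and lectin genes, 2 were lower and 0 higher. They were Cd36 with 32 and 7 UMIs (−1.60, −3.10 to −0.47) and the inhibitory lectin gene Clec4a3 with 39 and 7 (−1.88, −3.37 to −0.78). Pparg, a lipid-sensing nuclear receptor, had 67 and 20 UMIs (−1.20, −2.03 to −0.49), and Lipa, lysosomal acid lipase, 42 and 13 (−1.14, −2.20 to −0.25). Trpm2, a calcium channel, had 27 UMIs in 20 nuclei and 4 UMIs in 3 nuclei (−2.09, −4.21 to −0.72). These genes had a ratio below 0 in both the female and the male mice.

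Fewer listed genes were higher under the Cxcl12-cKO label, and several of those rested on single nuclei. Gpnmb had 31 UMIs in the control-labelled library and 77 in the cKO-labelled library, 42 of them in 1 nucleus, and its log2 ratio was 1.82 (1.21 to 2.48) with and 1.33 (0.51 to 2.22) without the top nucleus of each library. Spp1, the secreted glycoprotein osteopontin, had 11 and 55 UMIs, 45 of the latter in 1 nucleus, and 0.67 (−0.78 to 2.15) without the top nuclei. Of 8 proliferation genes, 25 UMIs were found in the cKO-labelled library against 5, and 23 of the 25 lay in 1 nucleus. The transferrin receptor gene Tfrc had 17 and 27 UMIs (1.17, 0.26 to 2.15), the ratio being 0.51 for the female pair of mice and −0.04 for the male pair. Abca1, the lipid exporter, did not reach the fold but was seen in 91.1% and 94.7% of nuclei, with 498 and 471 UMIs and a log2 ratio of 0.44 (0.25 to 0.62). Gpc6 with 10 and 43 UMIs (2.57, 1.61 to 3.78) and Rbms3 with 7 and 27 (2.39, 1.23 to 3.91) had the highest ratios among the genes named. The summed fibroblast list of 8 genes stood at 302 and 421 CPM in BAM nuclei, a log2 ratio of 0.48 (0.00 to 0.96). The part of fibroblast RNA in the values of Gpc6 and Rbms3 was not tested.

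The other genes named between the libraries had no common role in the lists. Lower under the Cxcl12-cKO label were the ribosomal protein gene Rpl5 (33 and 6 UMIs, −1.85, −3.49 to −0.67), the chromatin protein gene Dek (31 and 6, −1.76, −3.40 to −0.57), the helicase gene Wrn (40 and 8, −1.74, −3.11 to −0.69) and the phosphoinositide phosphatase gene Sacm1l (25 and 5, −1.70, −3.55 to −0.39). Higher were Agtpbp1, which trims tubulin tails (14 and 34, 1.77, 0.86 to 2.81), the glutamine transporter gene Slc38a1 (9 and 21, 1.70, 0.55 to 3.05) and Niban2 (18 and 35, 1.46, 0.62 to 2.38). Each of these rested on fewer than 50 UMIs per library. Trpm3 (17 and 41 UMIs) had 26 of its UMIs in 1 nucleus, and its log2 ratio was 1.76 with and 0.51 without the top nuclei. Lars2, the mitochondrial leucyl-tRNA synthetase, had 33 and 76 UMIs, and its ratio was 1.71 with and 1.11 without them.

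Many groups differed little. Of 18 transcription factors and 16 cytokine receptors, none reached the fold, with medians of −0.07 and −0.08. Of 9 growth and matrix genes, 1 was higher (Spp1, above) and 0 lower, with a median of −0.15. The summed list had a log2 ratio of −0.02 (−0.25 to 0.21) between the female mice and −0.60 (−0.93 to −0.27) between the male mice. Of 3 inflammatory genes with enough UMIs out of 15 listed, Fcgr1, the high-affinity IgG receptor, was lower with 23 and 7 UMIs (−1.13, −2.66 to 0.07). Of 20 lysosome and lipid genes, 2 were higher and 2 lower, with a median of 0.13. The summed list went opposite ways by sex. Its log2 ratio was −0.51 (−0.64 to −0.38) between the female mice and 0.43 (0.27 to 0.58) between the male mice. Without the MHC-rich nuclei the female value was −0.01 (−0.15 to 0.13). Of 13 genes of the uptake of dying cells, 1 was lower (Cd36) and 0 higher, with a median of −0.14. The TAM receptor gene Mertk had 353 and 228 UMIs (−0.11, −0.36 to 0.13). Apoe, which carries lipid, had 1074 and 777 UMIs (0.05, −0.09 to 0.19), although 353 and 249 of them lay in 1 nucleus of each library. Igf1 had 190 and 105 UMIs (−0.33, −0.70 to 0.01) and Pdgfc 144 and 125 (0.31, −0.04 to 0.67). Of the chemokine axis whose ligand was the target, BAM nuclei held 4 and 2 UMIs of Cxcl12, 3 and 0 of the receptor gene Cxcr4, and 0 of Ackr3, too few for a comparison.

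**Figure D5:**
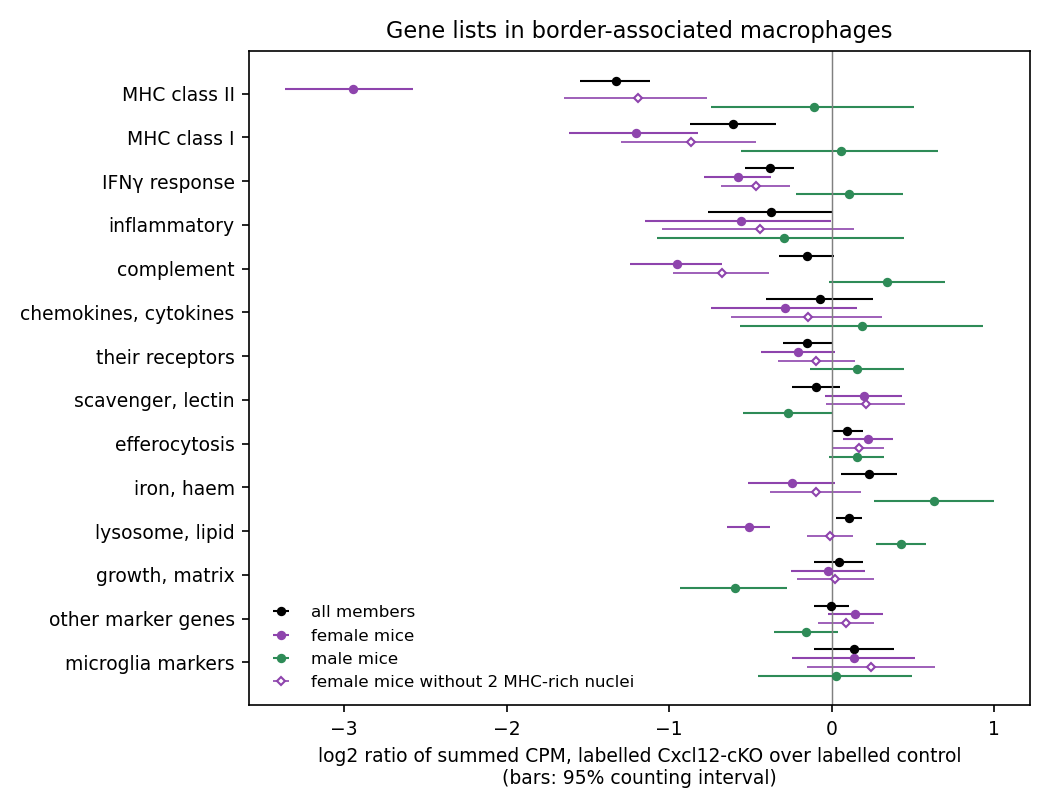
Log2 ratio of the summed CPM of 14 gene lists in BAM nuclei, labelled Cxcl12-cKO over labelled control, for all members (black), the female mice (purple), the female mice without 2 MHC-rich nuclei (open diamonds) and the male mice (green), with 95% counting intervals. MHC class II, MHC class I and complement lay below 0 in the female mice with intervals that included 0 in the male mice, and the other marker genes lay near 0.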

How the data were processed

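Nuclei of lesion and parenchyma were tagged, pooled and captured as 1 gene expression library per genotype. Per the labels, the authors used Cell Ranger 9.0.0 and the GRCm39 genome. The deposited values were whole UMI counts for each gene in each barcode, neither scaled nor logged, and no matrix was left unused. Barcodes in the lowest 2.49% by UMIs were removed, and no doublet caller was run. For each class, UMIs were added up by library and expressed as CPM. Log2 ratios were taken with 0.5 added to each sum, for genes with 30 or more UMIs. Exact Poisson, binomial and conditional binomial intervals at 95% were used, and no p-values were made. The members and gene lists were chosen with earlier results of these data known. Named between libraries were the 10 highest and 10 lowest genes past a log2 ratio of 1 with the same sign in both mice, and against each class the 15 highest and 10 lowest past it in both libraries, beside any listed gene. From these, the ones described were chosen after their values were seen. Rule genes, mitochondrial and sex-linked genes were left out of the ranking. The calculation was tested on simulated data. Alternatives varied the rule, the filters, the mouse, the pseudocount, the count minimum and the scaling. Tools were pandas 2.3.3, scipy 1.17.1 and numpy 2.4.6 in Python 3.11.15, matplotlib 3.10.9 and, for TMM factors, edgeR 4.0.16. Promoter sequences came from RefSeq. Some genes are not reported here.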

Additional observations from a re-analysis of the deposited data

Results flagged for a closer look

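The median log2 ratio of the IFNγ response list in BAM nuclei, labelled Cxcl12-cKO over labelled control, had opposite signs in the mice. It was −0.80 between the female mice and 0.18 between the male mice. The difference between these values was not tested, since each was taken between 1 mouse and 1 other mouse.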

How the results depend on the processing

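No paired analysis was possible because the genotypes shared fewer than 2 replicate numbers and no result came from a test, and ratios within each sex are given instead. Of 82 values under alternative settings, 69 kept their direction and stayed near the reported value, among them 12 of 12 for the share of lesional nuclei, whose log2 ratio ranged from −0.80 to −0.34. The median of the MHC class II list, −1.59 as reported, moved to −3.38 with a rule sum of 6 or more, to −0.69 without nuclei with 3 or more collagen UMIs, to −3.26 between the female mice, to −0.45 between the male mice, and to −1.32 without nuclei with a Ccr2 UMI, but stayed below 0. That of the IFNγ list, −0.31 as reported, moved to −0.54 with a rule sum of 6 or more and to −0.80 between female mice, and reversed to 0.18 between male mice. The count of genes past the fold between the libraries, 129 as reported, was 55 in the male mice, where fewer genes were compared, 480 with a minimum of 15 UMIs and 6012 with no minimum. Without a minimum, the counts against microglia and Gpnmb-high macrophages were 2766 and 4097, beside 670 and 970 as reported. The causes of the moves of the list medians were not tested. The alternatives without Ccr2-bearing nuclei, without MHC-rich nuclei and without shared barcodes were chosen after the data had been seen. With TMM scaling, 52 genes were higher and 90 lower between the libraries, beside 59 and 70 as reported. With a pseudocount of 2, 55 were higher and 41 lower. Depth limits these values, since the 112 and 75 nuclei held 255058 and 178215 UMIs and a gene with few UMIs can pass the fold by counting error.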
